A study of Mus musculus with 6 samples.

Results

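The transcripts of 7 mouse genes of cholesterol synthesis and its control were followed in E14 mouse embryonic stem cells whose protein synthesis had been blocked with cycloheximide, a drug that stops ribosomes during elongation. The genes were chosen by symbol (Hmgcs1, Idi1, Fdps, Sqle, Lss, Insig1 and Srebf2), and all 7 were found among the 17485 genes listed for each library. All 7 also passed the filter on low counts that kept 12755 genes for testing. E14 is a pluripotent line of 129/Ola background, grown here with serum and leukaemia inhibitory factor (LIF). Treatment began 24 h after seeding, with 250 µg/mL cycloheximide in 0.007% ethanol for 3 h or 6 h. Control cells received ethanol without the drug for 9 h, so treated and control cells were set apart by the length of exposure too. Each of the 3 groups had 2 libraries of polyadenylated RNA. The labels do not say whether these came from separate cultures, so the p-values below measure the spread between these libraries, which may be technical. In such bulk RNA, fewer cells of a kind and less RNA per cell cannot be told apart, and all levels are relative to the other transcripts of the same library.

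Cells build cholesterol from acetyl-CoA by way of mevalonate, isoprenoid pyrophosphates, squalene and a series of sterols. The transcription factor SREBP2, made from Srebf2, is held in the endoplasmic reticulum with its escort SCAP by INSIG proteins while sterols are plentiful. When sterols run low the complex moves to the Golgi, where a pair of proteases releases the part of SREBP2 that enters the nucleus and raises transcription of nearly every enzyme of the route and of genes of lipoprotein uptake. Insig1 is itself a target, which closes a negative feedback loop, and several of these proteins are short-lived. Serum supplies cholesterol to cultured cells through lipoprotein uptake.

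The libraries held 9385447 to 27351079 counts, with the 6 h libraries the deepest at 27351079 and 23121225. Mitochondrial transcripts took 24.7% and 24.9% of the counts in the control libraries, 19.6% and 18.9% at 3 h, and 17.4% and 16.6% at 6 h. A floor of 3 counts, below which a gene was taken as not detectable, lay between 0.0990 and 0.367 CPM, which is counts scaled to a common library total, and it covers counting error only. All 10 embryonic stem cell markers, among them Pou5f1, Sox2 and Nanog, exceeded that floor in every library. The control libraries summed to 6877 and 7042 CPM over these genes, those of 3 h to 7966 and 8231, and those of 6 h to 5752 and 5562. The higher sum at 3 h lay mainly in Sox2, with group means of 2442 CPM in control and 3904 at 3 h. At 3 h 4 of the 10 had a log2 fold change above 0 and 6 below 0, and at 6 h all 10 were below 0. Endoderm markers summed to 5.56 to 15.0 CPM, mesoderm markers to 5.62 to 12.6 and fibroblast markers to 4.64 to 9.65, with Ttr, Apoa1, Mesp1, Kdr and Col1a2 at 0 in at least 1 library. Neuroectoderm markers, led by Tubb3 and Sox1, summed to 332 to 344 CPM in control, 287 to 328 at 3 h and 145 to 153 at 6 h. The fall lay mainly in Tubb3, with group means of 264, 199 and 71.8 CPM. Of the 5 neuroectoderm markers 2 had a 6 h log2 fold change above 0 and 3 below 0. The part of these marker levels in the results below was not tested.

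The sequences upstream of these genes are shown because the members are known SREBP targets. Their part in the results below was not tested. RefSeq windows of 300 bases, from 250 before to 50 after the annotated start (build GRCm38.p6), were found for 5 of the 7 members. Windows for Hmgcs1 and Idi1, which fell, and for Lss, which was not called, are printed 5′ to 3′ on the sense strand. Capitals mark matches on either strand to TCACNCCAC (a spelling of the classical sterol regulatory element), to CCAAT (the NF-Y box, read as ATTGG on the other strand) and to GGGCGG (an Sp1-type GC box, read as CCGCCC on the other strand). No marked match overlaps another.
Hmgcs1 (chr13:119690101-119690400, plus strand): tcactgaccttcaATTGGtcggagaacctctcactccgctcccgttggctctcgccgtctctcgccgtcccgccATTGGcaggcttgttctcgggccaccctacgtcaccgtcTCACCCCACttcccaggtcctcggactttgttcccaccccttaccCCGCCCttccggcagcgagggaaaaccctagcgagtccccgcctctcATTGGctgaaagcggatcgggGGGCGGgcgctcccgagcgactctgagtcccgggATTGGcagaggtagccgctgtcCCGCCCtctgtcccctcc
Idi1 (chr13:8885356-8885655, plus strand): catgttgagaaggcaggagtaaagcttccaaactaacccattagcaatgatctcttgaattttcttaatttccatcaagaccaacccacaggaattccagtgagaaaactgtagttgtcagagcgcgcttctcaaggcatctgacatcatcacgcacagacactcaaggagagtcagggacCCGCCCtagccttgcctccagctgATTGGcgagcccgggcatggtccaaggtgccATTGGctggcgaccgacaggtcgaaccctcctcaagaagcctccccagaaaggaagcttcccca
Lss (chr10:76531355-76531654, plus strand): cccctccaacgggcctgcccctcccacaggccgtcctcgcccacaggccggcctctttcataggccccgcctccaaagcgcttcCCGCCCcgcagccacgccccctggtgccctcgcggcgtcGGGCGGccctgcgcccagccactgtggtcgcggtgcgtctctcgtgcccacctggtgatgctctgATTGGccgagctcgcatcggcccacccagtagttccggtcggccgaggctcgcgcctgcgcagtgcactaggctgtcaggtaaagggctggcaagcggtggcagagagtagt

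Among the members the sterol element spelling occurred once, in the Hmgcs1 window, starting at position -137 from the start. It also occurred in the window of Stard3, a gene of the cholesterol transport list used below, as TCACTCCAC at position -211. The spelling was present in 408 of 32851 windows of the same length in the RefSeq table, or 1.24%. The Hmgcs1 window also held 4 CCAAT and 3 GGGCGG matches, the Idi1 window 2 and 1, and the Lss window 1 and 2. All 5 members with a window held both of the latter motifs, which are common (37.4% and 35.7% of all windows). Of the 15 cholesterol synthesis enzymes in the table, 14 had CCAAT and 14 had GGGCGG in at least 1 window, beside 41.1% and 38.2% of the 27025 genes. Other lists used below held them too. Each motif was in 8 of 9 genes of cholesterol uptake and transport and in 6 of 11 fatty acid genes. Of 9 SREBP control genes 5 had CCAAT and 8 had GGGCGG. These numbers were 2 and 3 of 5 liver X receptor genes, and 3 and 5 of 8 isoprenoid genes. A match is a description of letters and not a measured binding site, and genes with more than 1 window had more chances to hold one.

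After 3 h of cycloheximide 1 of the 7 genes was called, Idi1, and it was lower; after 6 h 4 of the 7 were called, Hmgcs1, Idi1, Fdps and Sqle, all lower. Lss, Insig1 and Srebf2 were called at neither time. A gene is called here where its adjusted p in edgeR's quasi-likelihood test is under 0.05, with Benjamini-Hochberg adjustment over all genes tested. At 3 h this rule called 4.9% of all tested genes (3.6% higher and 1.3% lower), and at 6 h 29% (14.8% higher and 14.3% lower). Between 6 h and 3 h it called 1.64% (0.455% higher and 1.18% lower) and none of the 7. The median log2 fold change of the 7 was -0.46 at 3 h, -0.64 at 6 h and -0.21 between the times, beside 0.02, 0.04 and 0.01 over all genes tested. The 3 h and 6 h values share their 2 control libraries. The groups did not overlap for 4 members at 3 h and 5 at 6 h, a pattern that 53.2% and 66.8% of all tested genes also showed.

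**Figure D1:**
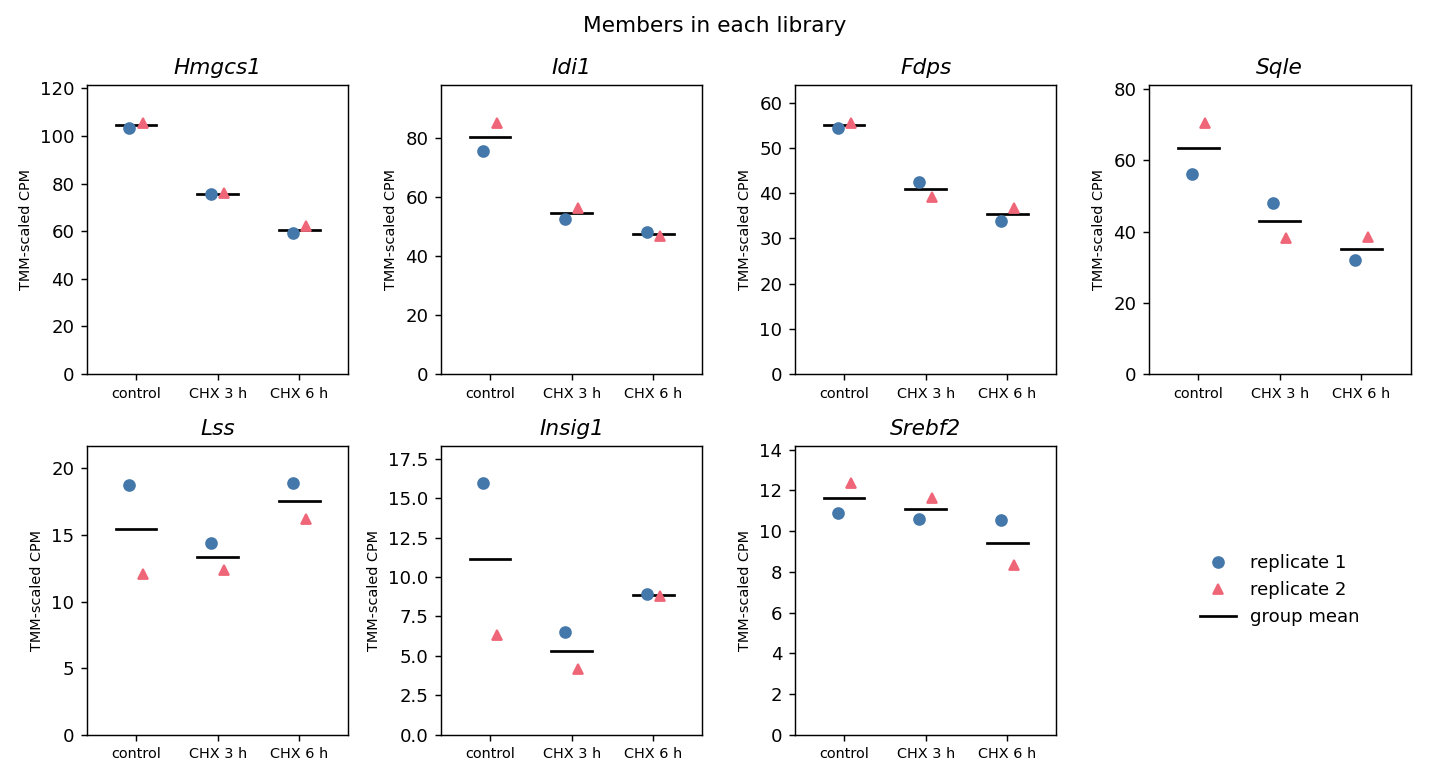
Level of each of the 7 genes in every library, in TMM-scaled CPM on an axis that starts at 0; points are libraries and short lines are group means (2 libraries a group). Hmgcs1, Idi1, Fdps and Sqle lie lower in both 6 h libraries than in both control libraries, and Insig1 and Lss show a wide gap between the control libraries.

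Hmgcs1 encodes cytosolic HMG-CoA synthase of the early mevalonate route (GENCODE M21, mm10: chr13:119690379-119708260, plus strand). Its level was 104 and 106 CPM in control, then 75.6 and 76.0 at 3 h and 59.3 and 62.1 at 6 h. The replicate libraries lay close together and the 3 groups did not overlap, with control highest and 6 h lowest. The log2 fold change was -0.46 ± 0.12 (SE) at 3 h with an adjusted p of 0.0571 in edgeR, which missed the threshold. That 3 h difference was called with DESeq2 (adjusted p = 0.00699), with no filter on low counts (adjusted p = 0.0389) and with a minimum count of 50 (adjusted p = 0.0492). At 6 h Hmgcs1 fell by 0.79 ± 0.12 on the log2 scale, a 1.72-fold decrease (adjusted p = 0.00268). The further difference from 3 h to 6 h was -0.32 (95% interval -0.58 to -0.06, adjusted p = 0.19), so these neighbouring levels were not separated after adjustment. The 6 h call was kept in all 16 alternatives tried, which included other tests, scalings and filters and leaving out each library.

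Idi1 encodes isopentenyl-diphosphate isomerase, which interconverts the isoprenoid building blocks (chr13:8885501-8892451, plus strand). It stood at 75.5 and 85.3 CPM in control, against 52.7 and 56.3 at 3 h and 48.2 and 46.8 at 6 h. All treated libraries were below both control libraries, and the 2 treatment times lay near each other. The decrease was 0.56 ± 0.13 at 3 h (log2 fold change -0.56, adjusted p = 0.049) and 0.76 ± 0.13 at 6 h (-0.76, adjusted p = 0.00467). The 6 h call was kept in all 16 alternatives. The 3 h call was kept in 7 of 16. It was lost with limma-voom, with scaling by library size alone, with the replicate number as a block and in the fit to the 4 libraries compared. It was also lost without control replicate 2 (log2 fold change -0.47, adjusted p = 0.126), without 3 h replicate 1 (-0.51, adjusted p = 0.221) or 2 (-0.61, adjusted p = 0.187), and without 6 h replicate 1 (-0.56, adjusted p = 0.0970) or 2 (-0.56, adjusted p = 0.0976). The fold changes stayed between -0.65 and -0.33. Idi1 has 3 processed pseudogenes with 90.6% to 100% identity over 679 to 684 bases, Gm13502, Gm35570 and Gm8911, that are not listed under those names in the count tables, so its counts may hold or lack reads shared with them.

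Fdps encodes farnesyl diphosphate synthase, the last enzyme before the route divides between sterols and other isoprenoids (chr3:89093588-89101959, minus strand). Its levels were 54.4 and 55.6 CPM in control, then 42.5 and 39.2 at 3 h and 33.8 and 36.8 at 6 h. Each group lay below the one before it without overlap. The log2 fold change was -0.43 ± 0.13 at 3 h (adjusted p = 0.0978, not called) and -0.64 ± 0.13 at 6 h (adjusted p = 0.00953), the latter a 1.56-fold decrease. The 6 h call was lost with scaling by library size alone (log2 fold change -0.28, adjusted p = 0.136). It was also lost without 6 h replicate 1 (-0.58, adjusted p = 0.0741) or replicate 2 (-0.70, adjusted p = 0.0525). A predicted gene on the same strand, Gm43738, overlaps Fdps, and the sharing of reads between them is not known. The antisense genes Gm48342 at Hmgcs1, Gm48574 at Idi1 and 4930483K19Rik at Lss could share reads too if the counting ignored strand, and 4930483K19Rik itself had 0 or 1 counts in each library.

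Sqle encodes squalene epoxidase, the first oxygen-dependent and a rate-controlling step of the sterol branch (chr15:59315077-59331192, plus strand). It was measured at 56.2 and 70.6 CPM in control, against 48.0 and 38.3 at 3 h and 31.9 and 38.6 at 6 h. Control libraries were above all treated libraries, while the 3 h and 6 h libraries overlapped. Sqle shares a stretch of 224 bases at 92.9% identity with a transcript of Sdccag8, which had 18 to 41 counts per library. Whether reads were shared between them is not known. Replicates of Sqle differed by 1.21 to 1.26 times within each group, more than those of Hmgcs1. The log2 fold change was -0.55 ± 0.18 at 3 h (adjusted p = 0.108, not called, but 0.0217 and called with no filter) and -0.84 ± 0.18 at 6 h (adjusted p = 0.0105), the latter a 1.80-fold decrease. The 6 h call was lost with scaling by library size alone (log2 fold change -0.49, adjusted p = 0.0693) and without 6 h replicate 1 (-0.72, adjusted p = 0.0770).

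Lss encodes lanosterol synthase, which closes squalene epoxide into the first sterol ring system (chr10:76531588-76557138, plus strand). Its levels were 18.7 and 12.1 CPM in control, then 14.4 and 12.4 at 3 h and 18.9 and 16.2 at 6 h. The control libraries enclosed both 3 h libraries and 1 of the 6 h libraries. The log2 fold change was -0.22 (95% interval -0.76 to 0.32, adjusted p = 0.607) at 3 h and 0.17 (-0.36 to 0.70, adjusted p = 0.615) at 6 h, and neither was called. The 3 h interval includes a decrease of the size measured for Idi1, and the 6 h interval ends above the 6 h values of Hmgcs1, Idi1, Fdps and Sqle. The control replicates differed 1.55 times. The 90th percentile of such control differences was 1.45 over the 5472 genes with a mean of at least 20 CPM, a level that Lss did not reach. Without control replicate 1 the 3 h value was 0.14, and without control replicate 2 the 6 h value was -0.092. The direction for Lss thus turned at each time when a control library was left out, a different library at each time.

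Insig1 encodes the sterol-sensing retention protein of the feedback loop and is one of the most sterol-responsive SREBP2 targets (chr5:28071363-28078662, plus strand). Its counts were 215 and 52 in control, then 101 and 72 at 3 h, and 271 and 229 in the deeper 6 h libraries. These correspond to 15.9 and 6.35 CPM, 6.52 and 4.16 CPM, and 8.94 and 8.78 CPM. Control replicate 1 was far above every other library, and control replicate 2 was near the 3 h libraries. The control libraries differed 2.51 times. The median was 1.13 times over the 5472 genes with a mean of at least 20 CPM, a level that Insig1 did not reach. The log2 fold change was -1.09 ± 0.41 at 3 h (adjusted p = 0.146) and -0.36 ± 0.39 at 6 h (adjusted p = 0.526). Without control replicate 1 these became -0.26 and 0.48, and without control replicate 2 the 3 h value was -1.58 (adjusted p = 0.0223, called), so the size depended on which control library was kept. With all 6 libraries and no filter on low counts the 3 h value of -1.09 was also called (adjusted p = 0.0035). The difference from 3 h to 6 h uses no control library for its means and was 0.73 (95% interval -0.18 to 1.64, adjusted p = 0.373), with both 6 h libraries above both 3 h libraries.

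Srebf2, the gene of the transcription factor itself, spans chr15:82147181-82205379 on the plus strand and carries the microRNA gene Mir33 within it. It was measured at 10.9 and 12.3 CPM in control, against 10.6 and 11.6 at 3 h and 10.5 and 8.32 at 6 h. Control and 3 h libraries overlapped, and both 6 h libraries were slightly lower. The log2 fold change was -0.06 (95% interval -0.55 to 0.43, adjusted p = 0.896) at 3 h and -0.30 (-0.78 to 0.19, adjusted p = 0.333) at 6 h. With 101 to 319 counts per library, a difference of the size seen for Fdps at 6 h lies inside the 6 h interval and could not be told from none at this depth.

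**Figure D2:**
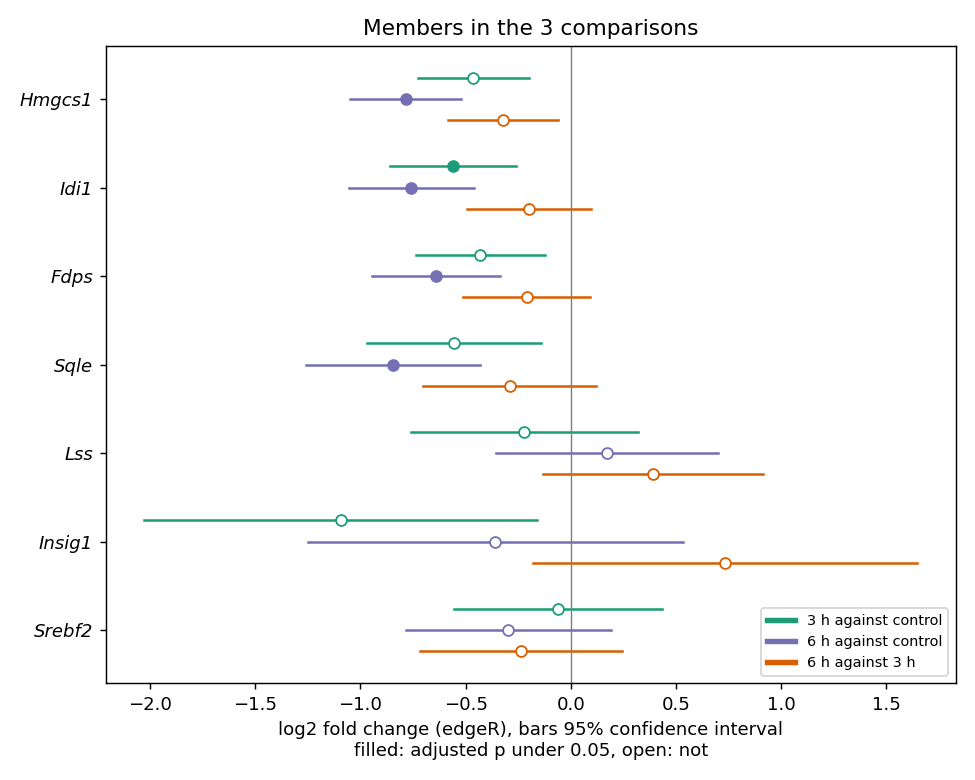
Log2 fold change of each of the 7 genes with its 95% interval at 3 h and 6 h against control and at 6 h against 3 h; filled points have an adjusted p under 0.05. At 6 h the filled points are Hmgcs1 (-0.79), Idi1 (-0.76), Fdps (-0.64) and Sqle (-0.84), at 3 h Idi1 (-0.56) alone, and between the times none.

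The rest of the synthesis route was read from a list of 18 enzymes that contains the 5 enzymes above. Of the list 17 were tested, and the level of Msmo1, whose window is in the motif counts above, was not analysed here. At 3 h all 17 had a log2 fold change below 0 (median -0.46), and 1 was called, Idi1 (5.9%, beside 4.9% of all tested genes). Over all tested genes 52.2% had a 3 h log2 fold change above 0. With library size alone the 3 h median of the enzymes was -0.24 and Lss stood at 0.0055. Without control replicate 1 Lss stood at 0.14 at 3 h. At 6 h 6 enzymes were called lower and none higher (median -0.34). Those 6 were 35.3% of the list, beside 29% of all tested genes called and 14.3% called lower. Between the times none was called (median 0.02). Under scaling by library size alone 2 enzymes were called lower and 1 higher at 6 h (median 0.02), and without 6 h replicate 1 or without 6 h replicate 2 the number called lower was 3.

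Of the 12 tested enzymes that are not members, 2 were called lower at 6 h and none higher. Over all tested genes 29% were called at 6 h, with 14.3% lower and 14.8% higher. The members made up the other 4 of the 6 enzymes called. Acat2, which joins acetyl-CoA units in the first step, fell by 0.50 at 6 h (adjusted p = 0.0157), a call lost without 6 h replicate 1 (log2 fold change -0.43, adjusted p = 0.109) or 2 (-0.58, adjusted p = 0.0558) and with library size alone (-0.15). Vps51, a gene on the same strand, overlaps Tm7sf2, a sterol C14 reductase, and the sharing of reads between them is not known. Tm7sf2 fell by 0.79 at 6 h (adjusted p = 0.041). That call was lost in 6 of 16 alternatives, among them those without control replicate 2 (-0.68, adjusted p = 0.114), without 3 h replicate 1 (-0.79, adjusted p = 0.0629) or 2 (-0.79, adjusted p = 0.0609), and without 6 h replicate 2 (-0.51, adjusted p = 0.235).

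The mevalonate kinases and decarboxylase were not called at either time, with log2 fold changes at 3 h and 6 h of -0.59 and -0.15 for Mvk, -0.14 and -0.16 for Pmvk, and -0.41 and -0.39 for Mvd. Fdft1, squalene synthase, stood at 191 and 188 CPM in control, against 65.3 and 122 at 3 h and 137 and 88.8 at 6 h. Every treated library was below both controls, but the treated replicates lay far apart, and its log2 fold changes of -1.02 and -0.75 had adjusted p-values of 0.0767 and 0.0782. Of the sterol-ring enzymes, Cyp51, lanosterol demethylase, gave -0.60 and -0.30 (adjusted p = 0.0512 and 0.147). Nsdhl gave -0.46 and -0.33, Ebp -0.61 and -0.34, and Hsd17b7 -0.39 and 0.02, none of them called. Dhcr7, a late reductase, gave -0.01 and 0.00, and Sc5d, a sterol desaturase, gave -0.02 and 0.38, neither of them called.

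When the route was divided after Sqle, a division made after these values were seen and therefore not tested, the 9 enzymes up to Sqle had medians of -0.46 (log2 fold change, 3 h) and -0.64 (6 h), with 5 called lower at 6 h. The 8 tested enzymes from Lss on had medians of -0.43 and -0.15, with 1 called lower at 6 h. From 3 h to 6 h the medians were -0.20 up to Sqle and 0.29 from Lss on, and no enzyme was called in that comparison.

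**Figure D3:**
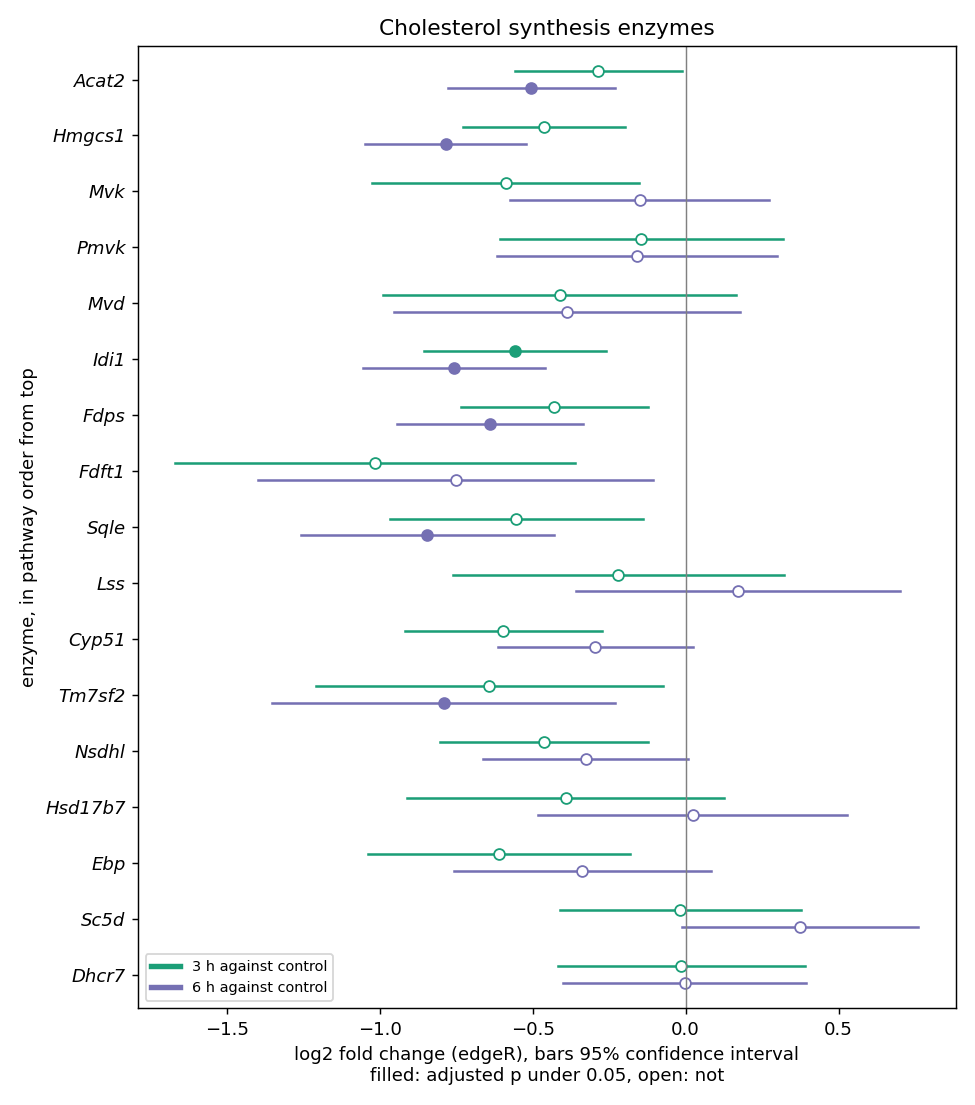
Log2 fold change with its 95% interval for the 17 tested enzymes in the order of the route, at 3 h and 6 h against control; filled points have an adjusted p under 0.05. Filled 6 h points are Acat2, Hmgcs1, Idi1, Fdps and Sqle in the upper part of the route and Tm7sf2 in the lower part, while Sc5d, Lss and Hsd17b7 lie above 0 at 6 h without being filled.

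Around SREBP itself, the list of 11 control genes that includes Srebf2 and Insig1 had 1 called lower at 3 h and, at 6 h, 2 called higher and 3 called lower. The shares called were 9.1% at 3 h and 45.5% at 6 h, beside 4.9% and 29% of all tested genes. Median log2 fold changes of the list were -0.06 at 3 h, -0.30 at 6 h and -0.17 between the times, where none was called. With library size alone the 6 h calls were 3 higher and 1 lower. Rnf145, a sterol-responsive ubiquitin ligase of the endoplasmic reticulum, had 28.3 and 30.3 CPM in control, then 12.4 and 13.4 at 3 h and 6.77 and 7.51 at 6 h. It fell by 1.18 ± 0.17 at 3 h (adjusted p = 0.00937) and by 2.04 ± 0.18 at 6 h (adjusted p = 0.000255), a 4.10-fold decrease at 6 h that was kept in all 16 alternatives. The 3 h call was lost without 3 h replicate 1 (-1.13, adjusted p = 0.0860) or 2 (-1.24, adjusted p = 0.0694). Mbtps1, the site-1 protease that cuts SREBP in the Golgi, fell by 0.70 at 6 h (adjusted p = 0.00853), and Erlin2, a membrane protein of the endoplasmic reticulum, fell by 0.51 (adjusted p = 0.0205).

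Srebf1, which encodes the SREBP1 proteins of fatty acid synthesis, rose while Srebf2 was not called. It was at 14.8 and 14.9 CPM in control, against 20.9 and 26.3 at 3 h and 27.4 and 28.1 at 6 h, with every treated library above both controls. Its log2 fold change was 0.67 at 3 h (adjusted p = 0.0629) and 0.90 ± 0.17 at 6 h (adjusted p = 0.00673), or 1.87-fold higher. Erlin1, the partner of Erlin2, also rose at 6 h (0.72, adjusted p = 0.0105). Without 6 h replicate 2 the 6 h values were 0.88 for Srebf1 (its adjusted p was just over the threshold), 0.65 for Erlin1 (adjusted p = 0.0831), -0.66 for Mbtps1 (adjusted p = 0.0683) and -0.46 for Erlin2 (adjusted p = 0.139), and all 4 calls were lost. Erlin2 was also lost without 6 h replicate 1 (-0.58, adjusted p = 0.0708) and without control replicate 2 (-0.43, adjusted p = 0.0719), and Mbtps1 (-0.34) and Erlin2 (-0.16) with library size alone. Values for the escort Scap were -0.35 at 3 h and -0.74 at 6 h (adjusted p = 0.477 and 0.0758). The remaining genes of the list gave smaller 6 h values that were not called: -0.15 for Insig2, -0.12 for the site-2 protease gene Mbtps2 and 0.25 for Rnf139. At 3 h those were 0.00, 0.08 and 0.14.

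Of 13 genes of cholesterol uptake and transport, 1 was called higher at 3 h (7.7%, beside 4.9% of all tested genes called). At 6 h 2 were called lower (15.4%, beside 29% of all tested genes called and 14.3% called lower). None was called between the times, and the medians were -0.21 at 3 h, -0.43 at 6 h and -0.20 between the times. With library size alone the 6 h balance was the opposite, 5 called higher and 1 lower (median -0.07). The 6 h median was -0.24 without control replicate 1 or without 6 h replicate 2, -0.29 without 6 h replicate 1, and 0.06 for the 10 genes left by a minimum count of 50; without 6 h replicate 2 none was called. Tmem97, a sterol-regulated membrane protein, fell by 0.91 at 6 h (adjusted p = 0.00504), and Npc2, which carries cholesterol inside lysosomes, fell by 0.67 (adjusted p = 0.00767). Both calls were lost without 6 h replicate 2 (-0.83 with adjusted p = 0.0503 for Tmem97, -0.60 with adjusted p = 0.0679 for Npc2), and that of Npc2 also with library size alone (-0.31). Gramd1a, a carrier of cholesterol from the plasma membrane, rose at 3 h (0.85, adjusted p = 0.0398) and was not called at 6 h (0.46, adjusted p = 0.0937). The 3 h call was kept in 9 of 16 alternatives. It was lost without control replicate 2 (0.69, adjusted p = 0.102), without 3 h replicate 1 (0.71, adjusted p = 0.197) or 2 (0.97, adjusted p = 0.121), and without 6 h replicate 1 (0.85, adjusted p = 0.0712) or 2 (0.85, adjusted p = 0.0696).

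Among 14 fatty acid genes known as SREBP targets, none was called at 3 h or between the times, and 5 were called lower at 6 h. Those 5 were 35.7% of the list, beside 29% of all tested genes called and 14.3% called lower. The medians were -0.32 at 3 h, -0.46 at 6 h and -0.10 between the times. With library size alone 1 was called higher and 1 lower at 6 h (median -0.11). Fasn, fatty acid synthase, stood at 45.7 and 45.6 CPM in control, against 31.8 and 35.1 at 3 h and 20.3 and 21.2 at 6 h. Its groups did not overlap, and its log2 fold change of -1.14 ± 0.14 at 6 h (adjusted p = 0.00123) was a 2.20-fold decrease kept in all 16 alternatives. Me1, malic enzyme, fell by 0.64 (adjusted p = 0.0129) and Scd1, a stearoyl-CoA desaturase, by 0.63 (adjusted p = 0.0172) at 6 h, as did Elovl5 and Scd2. All 4 of these calls were lost with library size alone, without 6 h replicate 1 (-0.67 and adjusted p = 0.0691 for Me1, -0.55 and adjusted p = 0.118 for Scd1, -0.51 and adjusted p = 0.0849 for Elovl5, -0.32 and adjusted p = 0.269 for Scd2) and without 6 h replicate 2 (-0.62 and adjusted p = 0.0942, -0.71 and adjusted p = 0.0708, -0.44 and adjusted p = 0.131, -0.65 and adjusted p = 0.0574). Without control replicate 2 the calls of Elovl5 (-0.39, adjusted p = 0.0806) and Scd2 (-0.34, adjusted p = 0.186) were lost, and Scd2 also without 3 h replicate 1 (-0.47, adjusted p = 0.0812) or 2 (-0.48, adjusted p = 0.0776).

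**Figure D4:**
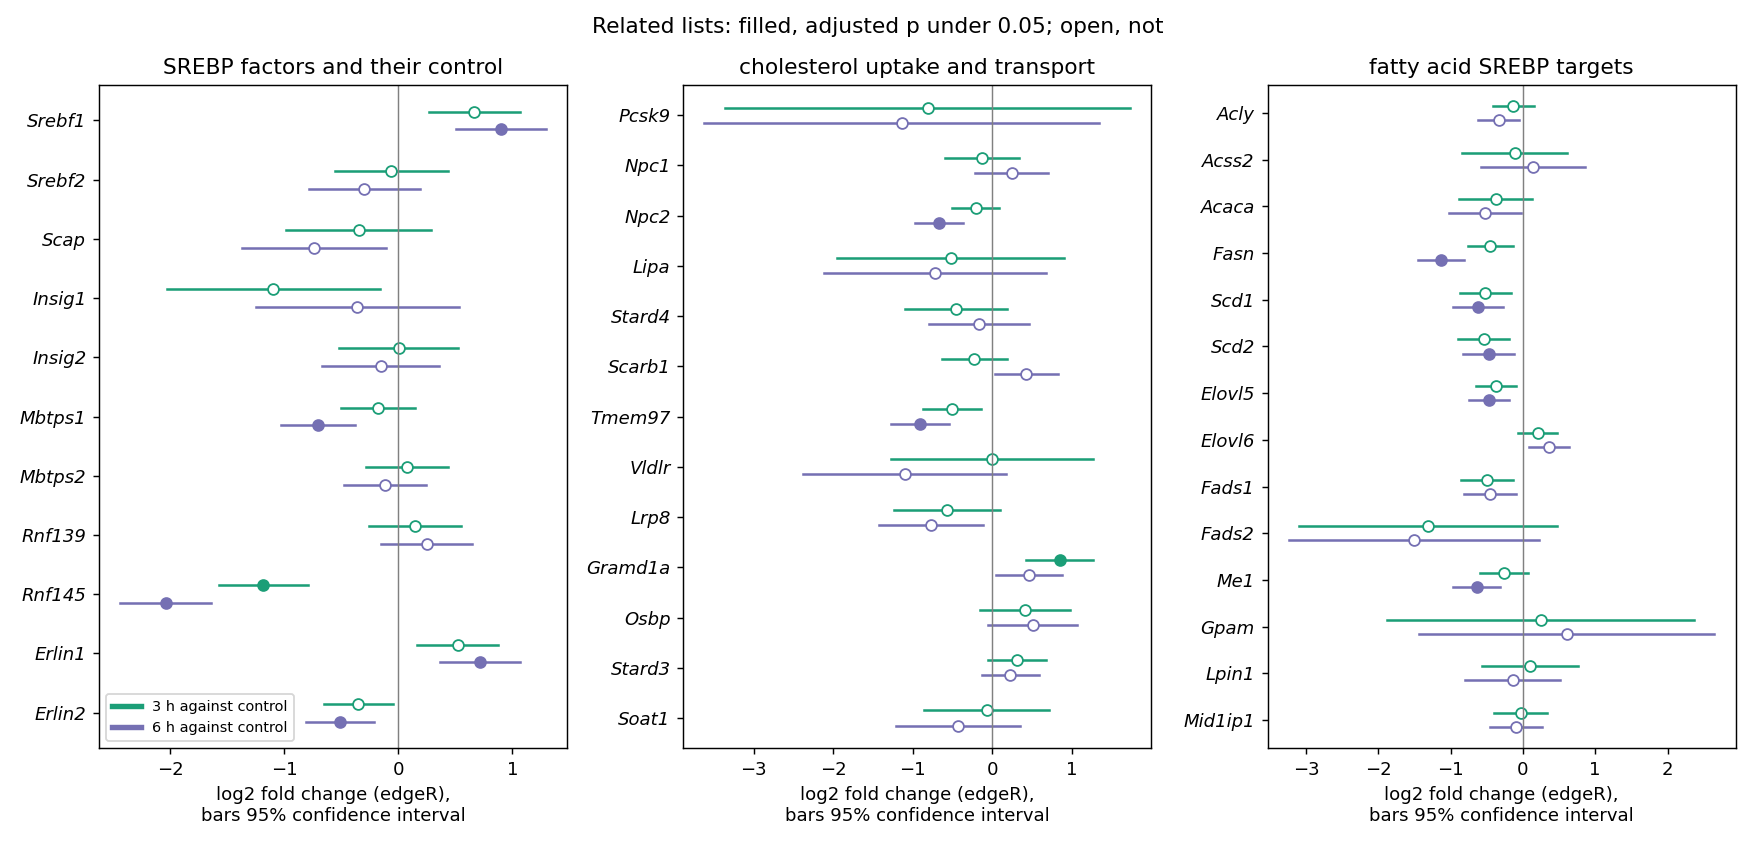
Log2 fold change with its 95% interval at 3 h and 6 h against control for the tested genes of SREBP control, cholesterol uptake and transport, and fatty acid synthesis; filled points have an adjusted p under 0.05, and each panel has its own scale. At 6 h Rnf145 (-2.04) and Fasn (-1.14) lie far to the lower side, and Srebf1 (0.90) and Erlin1 (0.72) are the filled 6 h points on the higher side.

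The liver X receptors (LXR) sense oxysterols and activate cholesterol export. Of the 7 genes in that list 6 were tested, and none was called at 3 h or between the times. The medians of the list were 0.05 at 3 h, 0.11 at 6 h and 0.06 between the times. At 6 h 1 was called (16.7%, beside 29% of all tested genes). It was Nr1h2, the gene of LXR beta, which fell by 0.96 (adjusted p = 0.0126). That call was lost with library size alone (-0.61), under which 2 other genes of the list were called higher, and without 6 h replicate 2 (-0.66, adjusted p = 0.0626). Of 10 genes that use isoprenoids outside sterol synthesis, none was called at 3 h or between the times. At 6 h 2 of them were called higher and 1 lower (30% called, beside 29% of all tested genes). The medians of these 10 genes were 0.21 at 3 h, 0.33 at 6 h and 0.19 between the times. At 6 h 4 were called higher and 1 lower without control replicate 1 (median 0.57) and with library size alone (median 0.68). At 3 h 2 were called higher with library size alone and 1 without control replicate 1 (median 0.32). Pggt1b, the beta subunit of an enzyme that attaches geranylgeranyl groups to proteins, rose by 1.34 (adjusted p = 0.00354) and Coq2, an enzyme of coenzyme Q synthesis, by 0.97 (adjusted p = 0.00593). Nus1, a subunit of the enzyme that makes dolichol chains, fell by 0.89 (adjusted p = 0.00666). The calls of Pggt1b, Coq2 and Nus1 were kept in all 16 alternatives.

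The scaling of libraries bears on every direction given here. TMM scaling, which assumes that most genes do not change in sum, placed the median log2 fold change of all genes at 0.02 at 3 h, 0.04 at 6 h and 0.01 between the times. Scaling by library size alone moved it to 0.25, 0.40 and 0.14. The share of called genes that were higher was 73.4% at 3 h, 50.8% at 6 h and 27.8% between the times with TMM, and 95.8%, 88.2% and 56.5% with library size alone. With DESeq2 the 3 h share was 55.4%. Hmgcs1 and Idi1 were called lower at 6 h with library size alone as well, Sqle (-0.49) and Fdps (-0.28) kept their sign without being called, and Srebf2 changed sign to 0.17 at 3 h and 0.059 at 6 h.

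**Figure D5:**
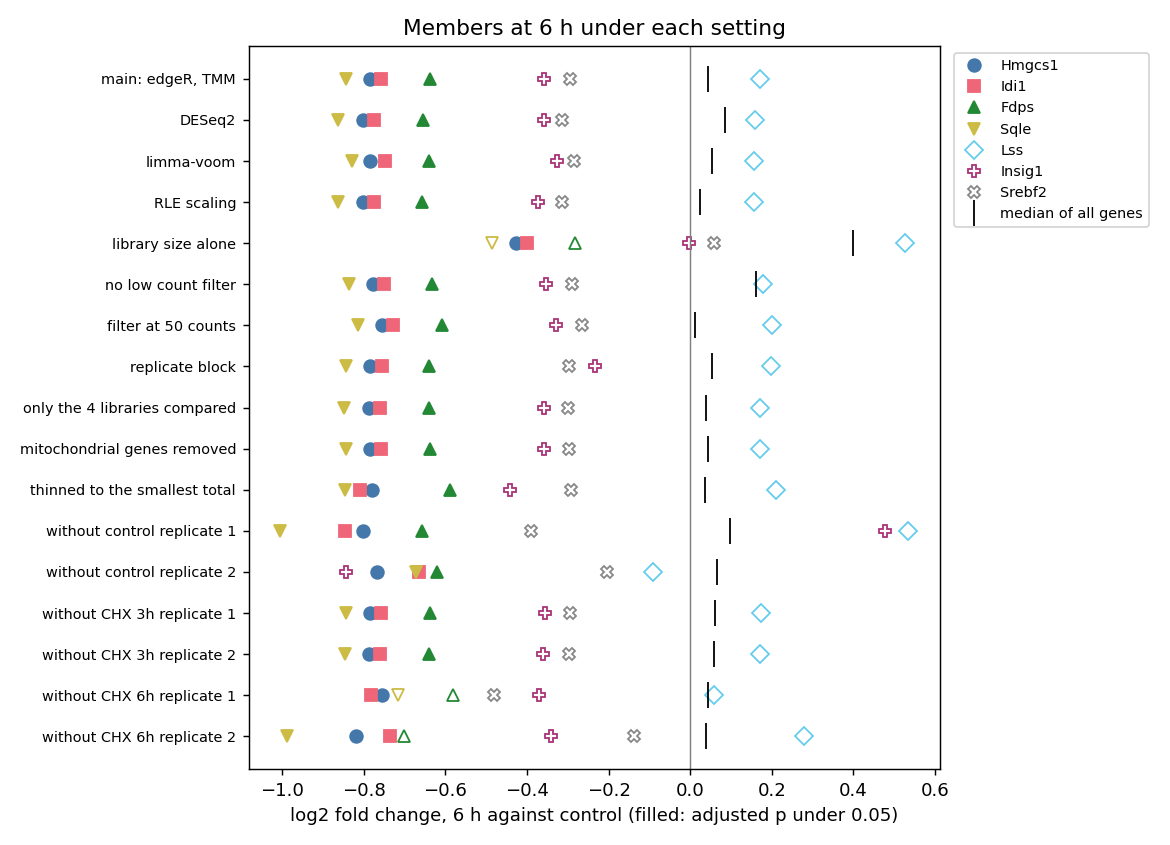
Log2 fold change of the 7 genes at 6 h against control in the main analysis and in each of the 16 alternatives; filled symbols have an adjusted p under 0.05, and black ticks mark the median of all genes tested. The symbols of Hmgcs1, Idi1, Fdps and Sqle all lie below 0, while those of Insig1, Lss and Srebf2 lie on both sides of 0, and library size alone moves the median of all genes to 0.40.

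The genes whose courses were nearest to each member were found among 5293 tested genes with a mean of at least 20 CPM and a descriptive symbol, by the root mean square difference of log2 CPM relative to control over the 6 libraries. For Hmgcs1 these were Dnaja1 (0.0196), Tnks2 (0.0320) and Rpl15 (0.0419), and for Idi1 they were Nid1 (0.0288), Psma5 (0.0446) and Snx10 (0.0491). Fdps was nearest to Pdcd5 (0.0304), Ndufv2 (0.0348) and Rps3a1 (0.0397), and Sqle to Psmg4 (0.0808), Nadk (0.0940) and Katna1 (0.105). Srebf2 was nearest to Tomm40 (0.0502), Atp6v1f (0.0595) and Grn (0.0603). Lss had Lpcat3 (0.113), U2af2 (0.116) and Npc1 (0.124) as its nearest genes. Insig1 had none close, with Stip1 (0.378), Ndufa8 (0.392) and Abhd14a (0.401) as its nearest. Apart from Npc1 and Lpcat3 beside Lss, none of these 21 nearest genes was on the lists of sterol and lipid genes used here. List genes with a mean under 20 CPM, such as Mvk and Mvd, could not be found this way. The share of list genes among the 5293 was not counted, so this number has no background beside it and no conclusion is drawn from it.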

How the data were processed

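The authors deposited raw counts per gene for each of the 6 libraries, mapped to mouse build mm10 per the submitters' processing notes; the aligner, counting program, annotation, strand setting and any use of molecular identifiers are not given in the sources used here. The title describes bulk RNA, the design text single-cell sequencing, and each file was analysed as 1 bulk library. Groups and replicate numbers came from the sample titles.

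Genes were kept by edgeR's filterByExpr with a minimum count of 10 and a minimum total of 15, which left 12755 of 17485. Libraries were scaled by TMM, and group means were fitted over all 6 libraries with edgeR 4.0.16 (glmQLFit and glmQLFTest, R 4.3.3, 3 residual degrees of freedom, no block). Tests were two-sided, with Benjamini-Hochberg adjustment over all genes tested and a threshold of 0.05. The SE is the absolute log2 fold change divided by the square root of F, and 95% intervals use the t distribution of the same fit. CPM are TMM-scaled. The steps were tested on simulated data, in 5 runs with 200 changed genes whose direction was drawn evenly between higher and lower. The scaling was therefore not tested for changes that lie mostly in the same direction or in many more genes.

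Alternatives were DESeq2 1.42.0, limma-voom (limma 3.58.1), RLE scaling, library size alone, no filter, a minimum count of 50, a replicate block, the 4 compared libraries fitted alone, removal of mitochondrial genes, thinning to the smallest total, and leaving out each library. A group left with 1 library is assumed to vary like the others. Genes named are the 7 members, the tested genes of the synthesis and SREBP control lists, the strongest called genes of the other lists at 6 h, Fasn, and the nearest profiles. Some genes of these lists are not reported here and were left out of list counts and medians. Gramd1a, Elovl5 and Scd2 are outside that rule and were named after their values were seen. The members and lists were chosen with earlier results of these data known. Levels are not compared between genes, because counts are not per length.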

Additional observations from a re-analysis of the deposited data

How the results depend on the processing

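The number of genes called at 3 h against control was 625 and became 1384 with DESeq2, 1373 with library size alone, 1816 with no filter on low counts and 218 in the fit to the 4 libraries compared, and 108 to 1033 when 1 library was left out. Of the 7 members 1 was called at 3 h, against 4 with no filter, 2 with DESeq2 and 2 with a minimum count of 50, and 0 with limma-voom, library size alone or the 4 libraries, and 0 to 1 when a library was left out. At 6 h the 3703 calls became 1312 to 3578 when a library was left out, and the 4 members 2 to 4, with 2 under library size alone. Between 6 h and 3 h the 209 calls became 667 with DESeq2, 508 with limma-voom, 1063 with no filter, 563 with the 4 libraries and 14 to 595 when a library was left out, while 0 members were called in all 16 alternatives. Whether the replicate numbers pair the libraries is not known. Deviations from group means of same-numbered libraries correlated at 0.30 (control and 3 h), -0.08 (control and 6 h) and -0.01 (3 h and 6 h) over 5472 genes. With the number as a replicate block, the calls numbered 426 genes and 0 members (3 h), 3550 and 4 (6 h), and 126 and 0 (6 h against 3 h). The 3 h value of Idi1 was then -0.56 (adjusted p = 0.0636). The sign turned for Lss at 3 h (0.0055 with library size alone, -0.49 to 0.14 when a library was left out) and at 6 h (-0.092 to 0.53 when a library was left out). It turned for Srebf2 at 3 h (0.17 with library size alone, -0.16 to 0.029 when a library was left out) and at 6 h (0.059 with library size alone), and for Insig1 at 6 h (-0.84 to 0.48 when a library was left out). None of these was called, and the cause of these changes was not tested. With 2 libraries a group and 52 to 319 counts per library for Insig1 and Srebf2, small differences could not be detected.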
